A study of Mus musculus with 8 samples.

Results

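Genes of brown and white adipocytes were followed array by array in the fetal ductus arteriosus and aorta of the mouse. The set was given by name: Ucp1, Cidea and Elovl3 as thermogenic genes, and Adipoq, Fabp4, Plin1, Cfd, Lep, Retn and Lpl as general fat genes. Every probe set annotated to exactly 1 of these symbols was taken, which gave 12 probe sets for 8 of the 10 genes, out of 34945 probe sets and 18193 genes with a single symbol. No probe set was assigned to Plin1 or Cfd in the annotation used, so neither is analysed here. The ductus arteriosus, the fetal vessel that joins the pulmonary artery to the aorta, was represented by 4 arrays, and the aorta by 4. Both tissues came from untreated animals whose strain is given as CD88, described in the labels as CD88 wild type, at day 19 of gestation. Each array carried total RNA of a pool made from the vessel segments of up to 10 pups of 1 pregnant female, so a pool and not a pup is the replicate. Pooled segments carry whatever tissue was dissected with the vessel, and the labels do not say how much surrounding fat was removed.

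Adipocytes store triglyceride in lipid droplets and secrete hormones such as adiponectin, leptin and resistin. Brown adipocytes burn fatty acids for heat through uncoupling protein 1, which lets protons leak across the inner mitochondrial membrane, and they are laid down before birth in the mouse, whereas most white fat expands after birth. Brown fat surrounds the thoracic aorta, and brown and white adipocytes share the genes of lipid storage, so the thermogenic genes are the part of the programme by which brown fat is usually told from white.

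All values are log2 expression after RMA, the submitters' array normalization, and array medians lay between 4.36 and 4.42 with first quartiles between 2.74 and 2.86. No detection calls were used, so a value near the first quartile is not shown to be above background. Correlations over all genes were 0.986 to 0.992 within a tissue and 0.979 to 0.987 between tissues. The mean over 8 smooth muscle markers was 10.13 to 10.61 on ductus arrays and 9.31 to 9.97 on aorta arrays. All 8 were lowest on aorta replicate 1, where 14.5% of all genes were lowest. Being high in both tissues, these markers do not check the tissue labels. In these bulk samples, fewer cells of a type and less RNA per cell cannot be told apart.

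The promoters of Ucp1, Adipoq and Lep are shown because the levels of these 3 genes separated the arrays in different ways, described next. They are RefSeq windows of build GRCm38.p6, 250 bases before to 50 after the annotated start, on the plus strand: Ucp1 at chr8:83290098-83290397, Adipoq at chr16:23146286-23146585 and Lep at chr6:29059971-29060270. Capitals mark matches, on either strand, to AGGTCA (the nuclear receptor half-site), CCAAT, or TTGCGCAA (a palindromic C/EBP element, which is also a match to TTGCNNAA).
Ucp1: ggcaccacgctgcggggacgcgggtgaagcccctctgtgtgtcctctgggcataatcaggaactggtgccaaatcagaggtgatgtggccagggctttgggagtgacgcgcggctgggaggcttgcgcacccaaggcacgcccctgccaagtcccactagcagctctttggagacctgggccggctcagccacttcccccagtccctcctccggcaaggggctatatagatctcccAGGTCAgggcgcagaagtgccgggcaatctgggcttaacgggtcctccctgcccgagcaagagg
Adipoq: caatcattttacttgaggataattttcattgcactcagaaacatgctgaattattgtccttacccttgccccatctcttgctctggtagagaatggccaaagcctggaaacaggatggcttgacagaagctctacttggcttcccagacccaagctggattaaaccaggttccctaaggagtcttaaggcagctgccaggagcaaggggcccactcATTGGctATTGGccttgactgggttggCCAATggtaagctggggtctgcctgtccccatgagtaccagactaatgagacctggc
Lep: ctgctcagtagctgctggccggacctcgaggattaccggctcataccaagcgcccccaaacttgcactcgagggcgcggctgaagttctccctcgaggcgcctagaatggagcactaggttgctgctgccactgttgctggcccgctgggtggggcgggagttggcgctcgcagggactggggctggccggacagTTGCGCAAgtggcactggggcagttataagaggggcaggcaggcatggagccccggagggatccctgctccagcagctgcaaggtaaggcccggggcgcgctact
The Ucp1 window held 1 match to AGGTCA, a motif present in 16.3% of all 32851 windows. The Adipoq window held 3 matches to CCAAT, which 37.4% of windows hold. The Lep window held TTGCGCAA, found in 0.183% of windows (TTGCNNAA in 10.8%). Of the 6 member genes with a window, which include Plin1 and Cfd, none held the full PPAR element, a direct repeat of the half-site with 1 base between (0.0396% of windows), TATAAA (13.6%) or the cyclic AMP element TGACGTCA (1.79%). These letter matches describe the windows and say nothing of binding.

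No adipocyte gene passed the test of a difference between the ductus and the aorta, and the spread between pools of the same tissue was large. Limma's moderated test with Benjamini-Hochberg adjustment over all 18193 genes called 0 of the 8 genes at an adjusted p under 0.05, against 3.86% of all genes. Over all 34945 probe sets it called 0 of the 12, against 2.86%. At an unadjusted p under 0.05 the gene fit had 1 of 8 (Elovl3), against 16.1% of all genes. The median difference of the 8 genes, ductus minus aorta, was -0.26, beside -0.03 for all genes, and adjusted p-values ran from 0.302 to 0.932. By pool, 7 of the 8 genes and 9 of the 12 probe sets had their highest value on aorta replicate 3, the array on which 9.92% of all genes peaked.

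**Figure D1:**
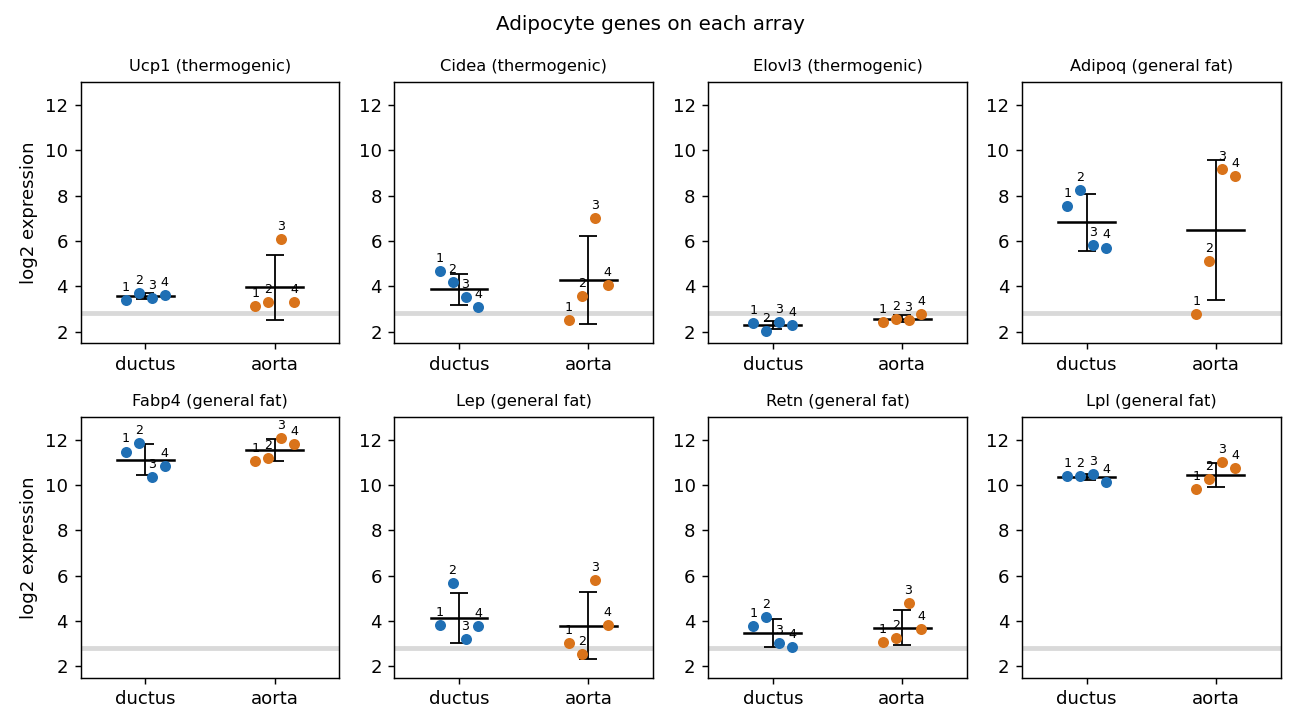
Log2 expression of the 8 adipocyte genes on each array (points, numbered by replicate), with ductus left and aorta right of each panel, the mean as a line and the standard deviation (n = 4) as a bar, and a grey band for the first quartiles of the arrays (2.74 to 2.86). Ucp1 is at 6.07 on aorta replicate 3 and between 3.11 and 3.72 on the other 7 arrays, while Adipoq runs from 2.76 to 9.16.

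Among the thermogenic genes, Ucp1, the uncoupling protein itself, was at 3.40, 3.72, 3.49 and 3.61 on the ductus arrays, against 3.11, 3.32, 6.07 and 3.29 on the aorta arrays. A single pool, aorta replicate 3, was thus high, 5.10-fold above the next array, and the other 3 aorta values lay below all 4 ductus values. Apart from aorta replicate 3, every value was below the array medians (4.36 to 4.42) and was not shown to be above background. The tissue difference was log2 -0.39 ± 0.574 (SE, n = 4 each; 95% interval -1.68 to 0.90; limma adjusted p = 0.808). Without aorta replicate 3 its sign turned, to log2 0.31 (limma adjusted p = 0.248).

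Cidea, a lipid droplet protein of brown adipocytes, was at 4.66, 4.18, 3.51 and 3.10 in the ductus, against 2.51, 3.56, 7.02 and 4.04 in the aorta. Its highest pool was again aorta replicate 3, 5.14-fold above ductus replicate 1, and the lowest, aorta replicate 1, lay below the first quartiles. Outside aorta replicate 3 and ductus replicate 1, its values were below the array medians and not shown to be above background. Among the ductus pools the standard deviation (SD) was 0.692 for Cidea and 0.139 for Ucp1. The ductus values of Ucp1 were not shown to be above background, so its small SD does not show a steady level. The tissues overlapped, with a difference of log2 -0.42 ± 0.823 (SE; limma adjusted p = 0.858), which became 0.49 without aorta replicate 3.

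Elovl3, a fatty acid elongase strongly induced by cold in brown fat, was at 2.39, 2.04, 2.41 and 2.30 in the ductus, against 2.42, 2.57, 2.51 and 2.79 in the aorta. All 8 values lay below or within the range of the first quartiles, so none was shown to be above background, aorta replicate 3 included. The ductus values all lay below the aorta values, and a lack of overlap in either direction held for 11.3% of all genes. The difference of log2 -0.29 ± 0.126 (SE) did not pass (limma adjusted p = 0.302). This was the 1 gene of the 8 without overlap between the tissues.

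All 5 general fat genes also peaked on aorta replicate 3, and the order of the other pools differed among them. Adipoq, the adiponectin gene and a marker of mature adipocytes of both kinds, was at 7.53, 8.25, 5.84 and 5.71 in the ductus, against 2.76, 5.11, 9.16 and 8.85 in the aorta. Aorta replicates 3 and 4 were highest, ductus replicates 2 and 1 came next, and aorta replicate 1 was at the level of the first quartiles, so the 84.4-fold range over the arrays is not exact. Over the 4 aorta pools Adipoq had an SD of 3.08, the largest of all 18193 genes, and over the 4 ductus pools its SD of 1.26 ranked 57th. The difference between tissues was log2 0.36 ± 1.33 (SE; 95% interval -2.62 to 3.35; limma adjusted p = 0.932), an interval that leaves room for differences of several-fold in either direction. Its sign turned without ductus replicate 2 (log2 -0.11), aorta replicate 1 (-0.87) or aorta replicate 2 (-0.09).

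Lep, the leptin gene, was at 3.83, 5.70, 3.19 and 3.80 in the ductus, against 3.01, 2.52, 5.83 and 3.84 in the aorta. A pool of each tissue was high, ductus replicate 2 and aorta replicate 3, and they differed from each other by log2 0.13. The other Lep values lay below the array medians (4.36 to 4.42) and were not shown to be above background. Aorta replicate 4, at 8.85 for Adipoq, was thus not among the high pools for Lep. Retn, the resistin gene, was at 3.77, 4.18, 3.05 and 2.85 in the ductus, against 3.09, 3.25, 4.80 and 3.63 in the aorta. The same pools led, aorta replicate 3 and then ductus replicate 2. Every Retn value but that of aorta replicate 3 lay below the array medians and was not shown to be above background. Differences were log2 0.33 ± 0.729 for Lep (SE; limma adjusted p = 0.880) and log2 -0.23 ± 0.405 for Retn (SE; limma adjusted p = 0.841). Without aorta replicate 3, the Retn difference was log2 0.14. The Lep difference was log2 -0.19 without ductus replicate 2 and log2 -0.10 without aorta replicate 2.

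Fabp4 and Lpl, which are not confined to fat, were high on every array. Fabp4, a fatty acid carrier of adipocytes that capillary endothelium and macrophages also make, was at 11.48, 11.84, 10.34 and 10.86 in the ductus, against 11.07, 11.21, 12.09 and 11.82 in the aorta. The tissues overlapped, with a difference of log2 -0.42 ± 0.339 (SE; limma adjusted p = 0.618). Aorta replicate 1, where Adipoq was at 2.76, still had 11.07 for Fabp4. Among 11 endothelial markers on the same arrays, 0 were called in favour of the ductus and 3 in favour of the aorta. Over all genes these shares were 1.8% and 2.06%. Of the 11 differences, 2 were above 0 and 9 below. The markers had list means of 6.91 to 7.08 on ductus and 7.27 to 7.60 on aorta arrays, and their part in the level of Fabp4 was not tested.

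Fabp4 had 4 probe sets, and they did not rank the pools alike. Probe sets 1451263_a_at, used above, and 1417023_a_at were highest on aorta replicate 3 and spanned 10.34 to 12.09 and 9.73 to 12.11. Probe sets 1424155_at and 1425809_at were highest on ductus replicate 2, at 6.23 and 5.34. All 4 were lowest on ductus replicate 3. Differences ran from log2 -0.64 for 1417023_a_at to 0.01 for 1424155_at, and none was called.

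Lpl, lipoprotein lipase, the enzyme that frees fatty acids from circulating triglyceride and that muscle and macrophages also express, was at 10.38, 10.39, 10.51 and 10.15 in the ductus, against 9.81, 10.26, 11.01 and 10.76 in the aorta. The 4 ductus pools lay within the range of the aorta pools, whose order from replicate 3 through 4 and 2 to replicate 1 was that of Adipoq. The difference was log2 -0.10 ± 0.237 (SE; limma adjusted p = 0.883), and log2 0.08 without aorta replicate 3. The second probe set, 1431056_a_at, ran from 6.07 on aorta replicate 1 to 7.51 on aorta replicate 3 and was not called either (log2 -0.27, limma adjusted p = 0.743).

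**Figure D2:**
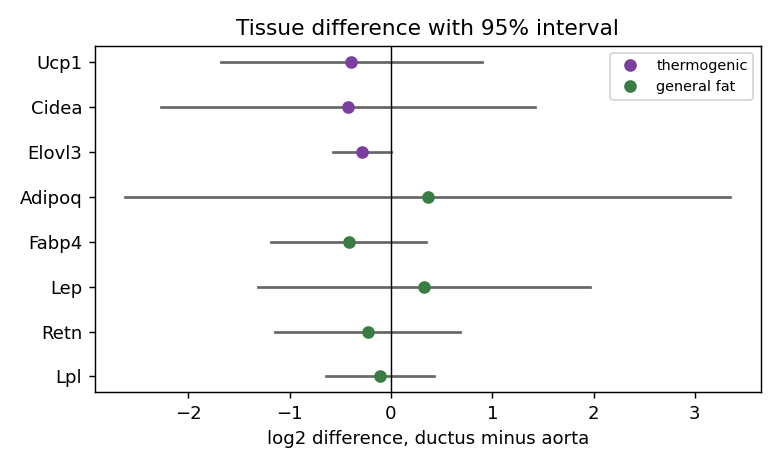
Log2 difference, ductus minus aorta, of each adipocyte gene (points, coloured by class) with limma's 95% interval (line). Point estimates run from -0.42 to 0.36, and the interval of Adipoq, -2.62 to 3.35, is the widest.

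The spread between pools was wide for most of these genes when ranked among all genes, which is a description with no test. In the aorta the SD of 5 of the 8 genes lay in the top 5% of all genes, Adipoq first, Cidea 14th, Lep 35th, Ucp1 39th and Retn 249th of 18193. In the ductus 5 of 8 were in the top 5% as well, and these were Adipoq, Lep, Cidea, Fabp4 and Retn. Ucp1 ranked 12353rd there, at values not shown to be above background. The median SD of the 8 genes was 0.644 in the ductus and 1.09 in the aorta, beside 0.190 in the ductus and 0.211 in the aorta for all genes. Without aorta replicate 3, the aorta SD of Ucp1 was 0.113 and that of Cidea 0.782, whereas that of Adipoq was 3.07. The Ucp1 and Cidea values left there were not shown to be above background.

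**Figure D3:**
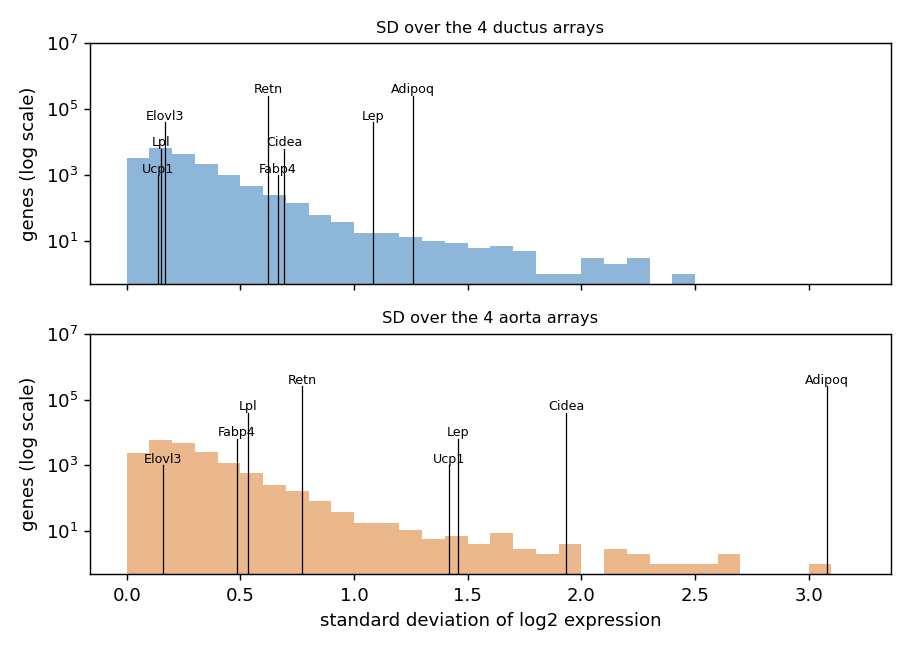
Histograms of the standard deviation of log2 expression over the 4 ductus arrays (top) and the 4 aorta arrays (bottom) for all 18193 genes, with a log scale for the number of genes and labelled lines for the adipocyte genes. Adipoq has the largest value of all genes in the aorta (3.08), and Ucp1 lies among the bulk of genes in the ductus (0.139) and far from it in the aorta (1.42). The ductus levels of Ucp1 were not shown to be above background.

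On some pools Adipoq was high while Ucp1 and Cidea were well below their level on aorta replicate 3. Ductus replicate 2 had Adipoq at 8.25, Ucp1 at 3.72 and Cidea at 4.18. Aorta replicate 4 had Adipoq at 8.85, Ucp1 at 3.29 and Cidea at 4.04. On aorta replicate 3 Adipoq, at 9.16, was not far above these, whereas Ucp1 was at 6.07 and Cidea at 7.02. As means of log2 values, the 3 thermogenic genes were at 3.00 to 3.48 on ductus arrays and at 2.68, 3.15, 5.20 and 3.38 on aorta replicates 1 to 4. The 5 general fat genes were at 7.40, 8.07, 6.58 and 6.67 on ductus replicates 1 to 4 and at 5.95, 6.47, 8.58 and 7.78 on aorta replicates 1 to 4.

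**Figure D4:**
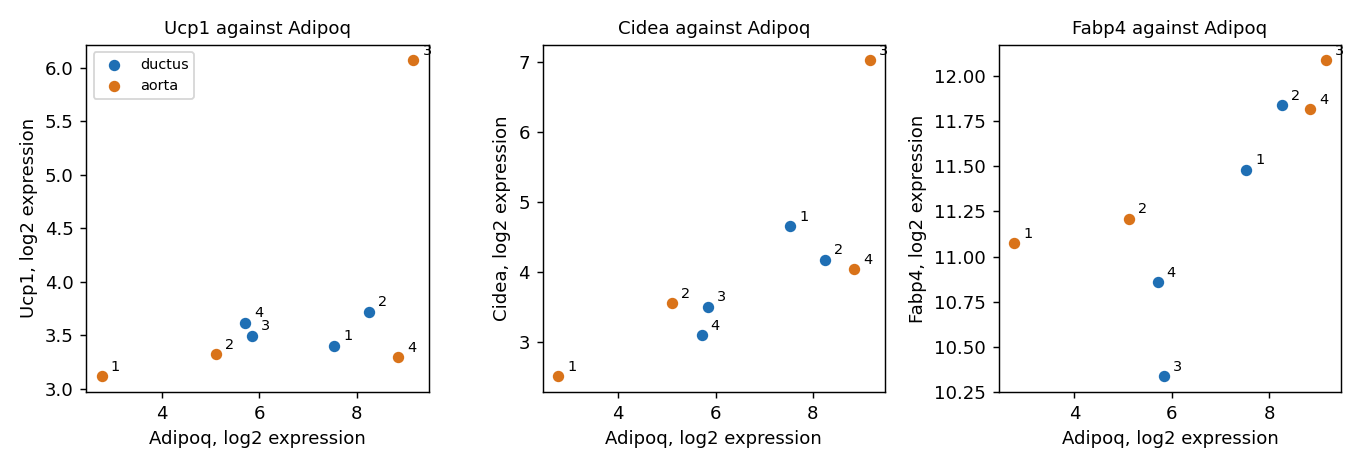
Log2 expression of Ucp1, Cidea and Fabp4 (vertical axes) against Adipoq (horizontal axes) on the 8 arrays, coloured by tissue and numbered by replicate. Aorta replicates 3 and 4 have near-equal Adipoq (9.16 and 8.85) and differ in Ucp1 (6.07 and 3.29).

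Markers of other tissues named different pools. The 10 mesothelial markers were all highest on aorta replicate 1, and their mean ran from 6.49 to 7.10 on ductus arrays and was 9.09, 8.24, 7.70 and 8.57 on aorta replicates 1 to 4, with 0 called in favour of the ductus and 7 in favour of the aorta (1.8% and 2.06% of all genes). Aorta replicate 1, lowest in Adipoq, was thus highest in mesothelial genes, and aorta replicate 3 the lowest aorta array. The order did not hold between them, since aorta replicate 4, next highest in mesothelial genes, had Adipoq at 8.85. The 12 skeletal muscle markers peaked on ductus replicate 3 in 10 cases (mean 6.51 there, 4.11 to 4.45 on the other ductus arrays and 3.78 to 4.35 on aorta arrays). The 11 thymocyte markers peaked on ductus replicate 1 in 10 cases (mean 7.17 there, 3.84 to 5.87 on the other ductus arrays and 3.50 to 6.36 on aorta arrays). Macrophage markers had list means of 7.11 to 7.93 on ductus and 7.63 to 8.04 on aorta arrays, and erythroid markers 7.77 to 8.39 on ductus and 7.11 to 8.15 on aorta arrays. None of the skeletal muscle, thymocyte, mesothelial, macrophage, endothelial, erythroid and smooth muscle markers peaked on aorta replicate 3. Of all genes, 9.92% did. The part of these markers in the adipocyte values was not tested.

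Other brown fat genes were followed by a fixed list of 21, of which 18 were measured. Limma called 1 in favour of the ductus and 0 in favour of the aorta, beside 1.8% and 2.06% of all genes. The median difference was -0.14. Of the 18, 8 (44.4%) were highest on aorta replicate 3, beside 9.92% of all genes. Cox8b and Cox7a1, cytochrome oxidase subunits of brown fat and striated muscle that were picked after their values were seen, were among them. Cox8b was at 4.83, 4.08, 5.46 and 4.29 in the ductus, against 3.53, 3.72, 7.11 and 4.82 in the aorta. The second highest Cox8b value was on ductus replicate 3, the array with the highest skeletal muscle markers. Cox7a1 was at 5.15, 5.02, 4.53 and 4.13 in the ductus, against 4.33, 4.23, 6.64 and 5.43 in the aorta. Prdm16, a transcriptional regulator of brown fat that other tissues also express, ran only from 9.37 to 9.85 in the ductus and from 9.44 to 10.13 in the aorta. The coactivator Ppargc1a ran from 6.11 to 6.64 in the ductus and from 6.00 to 7.14 in the aorta, and was 1 of the 8 genes highest on aorta replicate 3. Both were also picked after their values were seen, and neither was called (limma adjusted p = 0.770 and 0.816).

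The called gene of that list was Lhx8, a LIM homeobox factor reported as a brown fat marker and better known from the brain. It was at 7.51, 7.20, 6.67 and 7.12 in the ductus, against 5.78, 5.93, 5.81 and 5.77 in the aorta. Every ductus pool was above every aorta pool, and aorta replicate 3 did not stand out, a pattern unlike that of Ucp1. Lhx8 was 2.46-fold higher in the ductus (log2 1.30 ± 0.165, SE; limma adjusted p = 0.00220). Dio2, which activates thyroid hormone in brown fat, and the potassium channel Kcnk3, both picked after their values were seen, had all ductus values above all aorta values, without passing. Their differences were log2 1.46 ± 0.549 (SE; limma adjusted p = 0.218) and log2 1.27 ± 0.356 (SE; limma adjusted p = 0.0933). A lack of overlap between the tissues, in either direction, held for 11.3% of all genes.

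Of 17 lipid droplet and lipolysis genes, limma called 0, beside 3.86% of all genes, and the median difference was -0.16. At an unadjusted p under 0.05 there was 1 of 17, beside 16.1% of all genes. It was Abhd5, a coactivator of lipolysis, named after its values were seen. The list held 10 genes (58.8%) that peaked on aorta replicate 3 and 9 (52.9%) that were lowest on aorta replicate 1, beside 9.92% and 14.5% of all genes. The monoglyceride lipase Mgll had the largest difference, log2 0.47 ± 0.241 (SE; limma adjusted p = 0.383). Cidec, a droplet protein of white and brown fat, had log2 -0.40 ± 0.412 (SE; limma adjusted p = 0.713). Cidec was at 3.16, 3.55, 2.93 and 3.26 in the ductus, against 2.75, 2.89, 4.79 and 4.06 in the aorta. These values, except that of aorta replicate 3, lay below the array medians and were not shown to be above background. Lipe, the hormone-sensitive lipase, picked after its values were seen, was at 4.79, 5.46, 3.98 and 3.78 in the ductus, against 3.14, 4.17, 6.07 and 5.94 in the aorta, which is the order of the Adipoq pools except that aorta replicate 2 came above ductus replicates 3 and 4.

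Among 12 adipocyte transcription factors 0 were called in favour of the ductus and 1 in favour of the aorta, beside 1.8% and 2.06% of all genes, with a median difference of -0.10. Only 1 of the 12 (8.33%) was highest on aorta replicate 3, beside 9.92% of all genes. The called gene was Klf15, a Krüppel-like factor of adipocyte and muscle metabolism, 2.21-fold higher in the aorta (log2 -1.14 ± 0.197, SE; limma adjusted p = 0.0116). It was at 6.00, 6.41, 6.34 and 5.83 in the ductus, against 7.29, 7.77, 7.14 and 6.95 in the aorta, without overlap (11.3% of all genes), and aorta replicate 3 was not its highest array. Of 18 genes of fatty acid uptake and synthesis, 5 (27.8%) were highest on aorta replicate 3. Limma called 2 of these 18 in favour of the ductus and 0 in favour of the aorta, beside 1.8% and 2.06% of all genes (median -0.06). Slc2a4, the insulin-responsive glucose transporter of fat and muscle, was 2.33-fold higher (limma adjusted p = 0.0345). It was at 8.49, 8.72, 8.91 and 8.18 in the ductus, against 6.94, 6.89, 8.03 and 7.56 in the aorta. Its highest array, ductus replicate 3, was also the highest in skeletal muscle markers. Its next highest, ductus replicate 2, had the lowest skeletal muscle mean of the ductus arrays (4.11), and the part of muscle was not tested. The fatty acid transporter Slc27a1 was 1.48-fold higher in the ductus (limma adjusted p = 0.0424). The call of Slc2a4 was lost on leaving out any 1 of 6 of the 8 arrays, all but ductus replicate 4 and aorta replicate 3 (limma adjusted p of 0.0100 to 0.0933 over the 8). That of Slc27a1 was lost on leaving out any 1 array except aorta replicate 1 (limma adjusted p of 0.0382 to 0.114). With a replicate block their limma adjusted p was 0.0532 for Slc2a4 and 0.159 for Slc27a1.

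Receptors of adipokines and adipocyte precursor genes had 1 called member each, both in favour of the aorta, where 2.06% of all genes were called. Of 5 receptor genes, Cdh13, the T-cadherin that binds adiponectin and is made by vascular cells, was 2.68-fold higher in the aorta (limma adjusted p = 0.00183), at 7.85, 7.57, 8.08 and 7.78 in the ductus, against 8.96, 9.50, 8.99 and 9.53 in the aorta. The adiponectin receptors Adipor1 and Adipor2, the leptin receptor Lepr and Insr were not called. Of 8 precursor genes, Dpp4, a surface peptidase of fibroblast-like progenitors and of mesothelium, was 2.43-fold higher in the aorta (limma adjusted p = 0.0144). Dpp4 was at 9.84, 9.88, 9.60 and 9.85 in the ductus, against 11.85, 10.89, 10.73 and 10.82 in the aorta. Its highest array, aorta replicate 1, was also the highest in mesothelial markers. Aorta replicate 3 was the highest array for 0 of the 5 receptor genes and 1 of the 8 precursor genes (12.5%), beside 9.92% of all genes.

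Likeness to Ucp1 and to Adipoq was measured over the 8 arrays as the root mean square difference between log2 values, each gene centred on its own mean. Closest to Ucp1 were Otop1, a proton channel gene known from brown fat (0.269), G0s2, an inhibitor of triglyceride lipase (0.301), Mptx1 (0.411), Lct, the lactase gene (0.443), and Nrg4, a factor secreted by brown fat (0.511). Otop1 was at 2.64, 2.47, 2.36 and 2.25 in the ductus, against 2.30, 2.09, 4.55 and 2.50 in the aorta. Apart from aorta replicate 3 its values all lay below the first quartiles, so they were not shown to be above background, and its distance and rank are not exact. The same held for Mptx1 on 6 of the 8 arrays. Nrg4 was at 3.95, 4.02, 4.01 and 3.77 in the ductus, against 3.80, 3.64, 5.004 and 3.52 in the aorta. On all arrays but aorta replicate 3, Nrg4 was below the array medians and was not shown to be above background. All 5 genes were highest on aorta replicate 3, and that array sets the likeness, since Ucp1 varied little elsewhere.

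Closest to Adipoq were Irs4, an insulin receptor substrate (0.732), Acvr1c, the activin receptor ALK7 of mature adipocytes (0.821), Pparg, the master regulator of adipocyte differentiation (0.924), Gpd1, which makes the glycerol backbone of triglyceride (0.948), and Rbp7, a retinol-binding protein (0.997). Pparg was at 5.76, 6.59, 4.41 and 5.23 in the ductus, against 3.39, 3.98, 7.15 and 6.30 in the aorta. Gpd1 was at 6.97, 7.01, 6.19 and 6.09 in the ductus, against 4.76, 5.62, 8.90 and 7.97 in the aorta. For all 5 genes aorta replicate 1 was the lowest array, and either aorta replicate 3 or, for Irs4, aorta replicate 4 was the highest. None of these 10 genes was called between the tissues. They were picked for likeness to Ucp1 or Adipoq, which were not called. Neither the lack of calls nor the order of their arrays is thus a separate result.

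**Figure D5:**
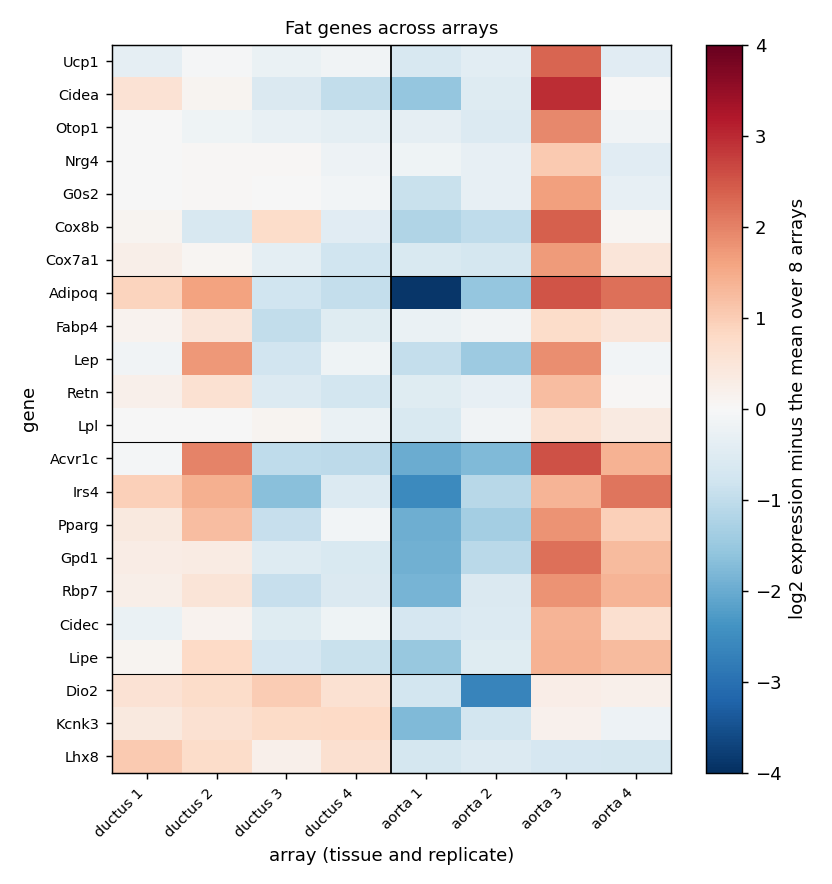
Log2 expression minus each gene's mean over the 8 arrays, for adipocyte genes and genes named beside them (rows) on the ductus arrays (left of the line) and aorta arrays (right). The top block, red on aorta replicate 3, holds Ucp1, Cidea and genes picked after their values were seen or for likeness to Ucp1. For the picked genes, that red follows from the choice. Elovl3, Prdm16 and Ppargc1a are not drawn, nor are Mptx1 and Lct, which were also named for likeness to Ucp1. Adipoq is also high on ductus replicates 1 and 2 and aorta replicate 4, and Lhx8 in the last row separates the tissues.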

How the data were processed

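The authors deposited log2 expression values, 1 per probe set and array. Partek 6.6 and RMA appear in the submitters' processing notes, without order or settings. Labels call the replicates biological, and the spread behind each p-value is that between pools, and the number of arrays limits the precision. Of 45101 probe sets, 64 controls, 9160 not listed in the annotation and 932 with several symbols were left out. Symbols were updated by gene ID for 34741 of 34945. The probe set of highest mean stood for each gene, and no filter was set on low values. Differences, ductus minus aorta, were fitted without covariates in limma 3.58.1 (R 4.3.3; eBayes, two-sided) and adjusted by Benjamini-Hochberg over all genes or probe sets. The code was tested on simulated data. Named genes were all members, up to 4 called genes per list (2 with the largest difference where none was called), and the 5 genes most like Ucp1 and like Adipoq. Genes outside this rule are said to be picked after their values were seen. The members and lists were chosen with earlier results of these data known. Alternatives covered scaling, filters, probe set choice, prior, array weights, a replicate block and leaving out each array. The alternatives for the spread between pools were added after seeing the data. Promoter windows are RefSeq's. Replicate numbers were not shown to pair the samples.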

Additional observations from a re-analysis of the deposited data

Results flagged for a closer look

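In groups of 4 arrays, a gene was listed where its highest or lowest array lay far from the nearest other by Dixon's ratio. This was so for 7 of 72 groups over 36 genes, and chance alone gives about 1 in 20. Several of these genes were named for their likeness to Ucp1 or after their values were seen. Ucp1 was at 6.07 on aorta replicate 3. Otop1 was at 4.55 and Mptx1 at 4.46 on the same array. Mptx1 was at 3.58 on ductus replicate 4. Dpp4 was lowest in the ductus at 9.60 on replicate 3 and highest in the aorta at 11.85 on replicate 1. Prdm16 was lowest in the ductus at 9.37 on replicate 1.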

How the results depend on the processing

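No adipocyte gene was called under any of the 17 alternatives run, and 117 of 126 recomputed differences kept their direction. The 9 that turned all came from leaving out 1 array. Over these, differences ran from -0.67 to 0.31 for Ucp1, -1.01 to 0.49 for Cidea, -0.87 to 1.26 for Adipoq, -0.19 to 1.00 for Lep, -0.47 to 0.14 for Retn and -0.32 to 0.078 for Lpl. Fabp4 and Elovl3 kept their direction throughout. The filters on low means kept 3 of the 8 genes. Calls over all genes, 702, ran from 443 (without aorta replicate 2) to 705 on leaving out 1 array, and were 454 without ductus replicate 4. Over all probe sets, 1001 calls, they ran from 618 (without ductus replicate 4) to 988, and were 652 without aorta replicate 2. A replicate block gave 403 genes and 545 probe sets, the cause was not tested, and it called none of the adipocyte genes. Same-numbered pools did not deviate together in any of 4 pairs (correlations of -0.23 to -0.07, 0 above 0.1, and no ductus pool correlated best with its own number), so the numbers were not taken as pairs. The highest correlation, 0.342, was between ductus replicate 1 and aorta replicate 4. Whether pools of different numbers came from the same female was not tested. Of the called genes named, Lhx8, Klf15 and Cdh13 kept their calls under all alternatives that gave them a value. Dpp4 lost its call only where the most variable probe set, by interquartile range, stood for each gene (limma adjusted p = 0.0515). Slc27a1 lost its call under median centring (0.0549), repeated quantile normalization (0.0562), that probe set choice (0.0558) and the mean over probe sets (0.115; limma adjusted p throughout), besides the replicate block and the arrays named beside its value. Scaling shifted the median of all genes by less than 0.1.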
